A study of Mus musculus with 6 samples.

Results

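The genes of the NF-kB transcription factors and of the proteins that restrain or activate them were followed in 6 mRNA libraries of mouse embryonic stem cells. The set was given by symbol and held 10 genes: the subunit genes Rela, Relb, Rel, Nfkb1 and Nfkb2, the inhibitor genes Nfkbia and Tnfaip3, the kinase genes Ikbkb and Ikbke, and Ikbkg, the gene of a kinase scaffold. All 10 were among the 21978 entries of the deposited table, and all 10 were among the 16498 genes that passed the filter on low counts. The study compared 3 groups of 2 libraries that differ in DGCR8, the partner of Drosha that recognises primary miRNA transcripts. KO cells had the genotype DGCR8 -/- and were not transfected. The wt cells (clones 12 and 16) and the E518K cells (clones 8 and 15) carried the genotype labels wt/wt and E518K/E518K and had received a Sleeping Beauty transposon vector for Flag-tagged DGCR8, wild type or E518K, together with the transposase plasmid. Every group shared the strain entry NBA1-19349 and 300 ng/mL doxycycline for 48 h, and all cells grew without feeders on gelatin, in LIF with the GSK3 inhibitor CHIR99021 and the MEK inhibitor PD0325901. The design text speaks of independent clones, but both KO libraries (1 and 3) carry the clone number 261, so their spread can be that of 1 clone, and p-values measure the spread between these libraries, which may be technical in KO. Whether the wt and E518K lines were made from the KO line is not stated.

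NF-kB factors are dimers of 5 related proteins that share a Rel homology domain. RelA, RelB and c-Rel, encoded by Rela, Relb and Rel, carry activation domains, whereas p50 and p52 are cut from the longer products of Nfkb1 and Nfkb2. In resting cells IkB proteins such as IkB-alpha, the product of Nfkbia, hold the dimers in the cytoplasm. In the canonical route a kinase complex of IKK-alpha, IKK-beta (Ikbkb) and the scaffold NEMO (Ikbkg) marks IkB-alpha for degradation, and A20 (Tnfaip3) shuts the signal off. The noncanonical route processes the Nfkb2 product and releases RelB with p52. Signalling through this pathway is known to be weak in mouse embryonic stem cells, and earlier work described repression of Rela by miRNAs of the miR-290 cluster, which is abundant in these cells and needs DGCR8.

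The promoters of several of these genes are known to be bound by NF-kB itself, so they are shown here with matches to the kappaB consensus in capitals (GGG, a purine, any 2 bases, 2 pyrimidines and CC). RefSeq promoters (GRCm38.p6, 250 bases before to 50 after the start) were held for 7 of the 10 genes, and 4 of the 7 had a match on either strand in at least 1 promoter, against 9.6% of 27025 genes. Overlapping matches are written as 1 run, and each line gives 30 bases on the strand of the gene.
Rel, chr11:23770920-23771219, minus strand, match 92 bases before the start: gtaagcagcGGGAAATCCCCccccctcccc
Nfkb2, chr19:46304487-46304786, plus strand, 39 bases before: gatcgtcacGGGAATTCCCCccctcggggg
Nfkb2, same promoter, 11 bases before: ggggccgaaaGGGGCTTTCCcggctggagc
Nfkbia, chr12:55492598-55492897, minus strand, 29 bases before: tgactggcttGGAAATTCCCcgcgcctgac
Tnfaip3, chr10:19015361-19015660, minus strand, 125 bases before: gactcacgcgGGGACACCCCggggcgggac
Tnfaip3, same promoter, 12 bases before: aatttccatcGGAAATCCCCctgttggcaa
The promoters of Rela, Ikbkg and Ikbke in the table held no match to these letters. Other annotated starts of Nfkb2 held further matches that are not printed. Such a match is a description of the sequence and not a measured binding site.

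Sequences that pair with the seed (bases 2 to 8) of a miRNA from the miR-290 to miR-295 cluster were looked for in the longest annotated 3' UTR of each gene (GENCODE M21), because these miRNAs depend on the protein that differs between the groups. The RefSeq table (GRCm38.p6) gave 17 mature miRNAs of the cluster, on chromosome 7, with 11 distinct seeds, and 7 of the 10 genes had at least 1 site, against 59.7% of 18907 genes with an annotated 3' UTR. Nfkb1, Nfkbia and Tnfaip3 had none. Of these miRNAs, miR-290b and miR-292b are annotated on the minus strand and the others on the plus strand. The single site of Nfkb2 is for miR-292b-3p. The 2 mature sequences below carry seeds that occur in Rela and Ikbkb, with the seed in capitals, and the target lines carry the matching bases in capitals.
miR-293-3p: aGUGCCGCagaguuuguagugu
Rela site: gtgatctctctgggGCGGCACg
miR-294-3p: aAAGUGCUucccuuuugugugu
Ikbkb site: acaatgcaggtacaAGCACTTg
The Rela site shown starts at base 124 of a UTR of 714 bases, and the same 7 bases occur in 1.4% of all UTRs searched. Rela also had a site for miR-290b-3p at base 39, of bases found in 7.9% of UTRs. The Ikbkb site shown starts at base 1163 of 1622, is shared by the seeds of miR-291a-3p, miR-294-3p and miR-295-3p, and occurs in 15.4% of UTRs. Ikbkb also had sites of other seeds, among them those of miR-290a-3p and miR-291b-3p. Sites in Rel, Nfkb2 and Ikbke are not printed. Ikbkg had 3 sites of that seed in a UTR of 5495 bases. Relb had a single site, for miR-292b-5p and miR-294-5p.

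Libraries held between 73642784 and 75121971 counts. Levels are given as CPM, counts scaled to the library size with TMM factors. As a check of the labels, the Dgcr8 level was 37.1 to 40.0 CPM in KO. It reached 195.5 CPM in wt clone 12, 992.4 CPM in wt clone 16, 820.6 CPM in E518K clone 8 and 420.2 CPM in E518K clone 15. All 8 markers of embryonic stem cells were detected, at summed levels of 4527.7 to 4625.0 CPM in KO, 5436.2 to 6408.5 in wt and 5916.0 to 5951.5 in E518K. Of these markers 7 of 8 passed the test as lower in KO than in wt, where 29.7% of all tested genes did, among them Klf4 by 1.07 on the log2 scale (-1.07 ± 0.16, SE), and 4 of 8 did so without either KO library. Klf4 had the largest of these differences, beside a list median of -0.34 and Nanog at -0.09 ± 0.08. In E518K against wt Utf1 (0.55 ± 0.10) and Zfp42 (0.22 ± 0.05) rose and Klf4 fell (-0.61 ± 0.16). There 11.3% of all tested genes rose and 12.5% fell. In E518K against KO 5 of the 8 rose and 0 fell, where 22% and 19.8% of all tested genes did. The sum of 10 blood and immune markers ranged from 322.1 to 329.4 CPM in KO, 340.0 to 345.1 in wt and 323.7 to 342.7 in E518K. Most of that sum was Laptm5 (274.6 to 299.7 CPM), while Ptprc had at most 10 counts in a library and Hba-a1 had 0 in all. Single markers on that list moved within the level sum: Cd3e had 701 and 691 counts in KO and 608 and 681 in E518K against 148 and 200 in wt, a rise of 1.92 ± 0.18 and 1.90 ± 0.18 on the log2 scale, and Itgam, at most 98 counts, fell by 2.18 ± 0.49 in KO against wt. Cd79a was lower than in wt both in KO (-0.71 ± 0.25, edgeR adjusted p = 0.0457) and in E518K (-0.90 ± 0.26, adjusted p = 0.0427). The sum of 8 fibroblast and feeder markers lay between 3.33 and 6.58 CPM, with Dcn at 14 and 16 counts in KO and at most 4 elsewhere (2.76 ± 0.97 in KO against wt, adjusted p = 0.0428) and Thy1 lower in KO than in wt (-1.07 ± 0.29, adjusted p = 0.0167). Col1a2 was lower in E518K than in KO (-1.43 ± 0.45, edgeR adjusted p = 0.0381). The part of these markers in the results below was not tested, and in bulk RNA fewer cells of a kind and less RNA per cell cannot be told apart.

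Per length, the deposited TPM values, a transcript abundance scaled by library and by gene length (here the whole genomic span), placed Nfkbia highest in each group. For Nfkb2 the length implied by counts and TPM was shorter, at 0.912 of its span in GENCODE M21. Nfkbia stood at 148.2 TPM in KO, 132.7 TPM in wt and 130.2 TPM in E518K, 6.71 to 8.35 times the level of Rela in the same library. Per exonic base that ratio was 3.89 to 4.84. Nfkb2, Rela, Relb and Ikbkg followed. The order of these 4 rests on the length used: exons make up 56.8% of the span of Nfkb2, 28.9% for Rela, 16.7% for Relb and 13.4% for Ikbkg, so a level per span is lowered most for the genes rich in introns. In KO the deposited order was Nfkb2 (28.6 ± 0.141 TPM, SD, n = 2), Relb (26.4 ± 0.691), Rela (20.5 ± 0.467) and Ikbkg (12.7 ± 0.188), with no overlap between neighbours. The shorter length raises the TPM of Nfkb2, so its place above Relb rests on that length too. A level of Nfkb2 over its full span was not computed. On this per-span scale wt had Relb last of these 4 at 11.7 ± 1.17 TPM and Nfkb2 (16.5 and 24.1 TPM) first with a wide spread. In E518K Rela (17.7 and 19.1 TPM) and Nfkb2 (16.5 and 18.3 TPM) overlapped. Ikbkb, Nfkb1 and Tnfaip3 lay between 0.681 and 3.32 TPM, and Rel and Ikbke were below 1 TPM in each library. With exonic bases as the length, a scale added after seeing the data that still counts intron reads, Nfkbia stayed first at 39.4 to 43.6 CPM per kilobase, and Relb (9.46 to 23.4) stood above Rela (8.14 to 10.5) and Nfkb2 (3.83 to 6.70) in each library.

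The 5 subunit genes summed to 77.3 and 79.3 TPM in KO, 55.0 and 46.0 TPM in wt, and 51.1 and 53.8 TPM in E518K. Relb made up 33.5% and 33.9% of that sum in KO, 22.8% and 23.7% of it in wt, and 29.6% and 26.5% of it in E518K. The ratio of Relb to Rela on this scale was 1.29 in both KO libraries, 0.790 and 0.674 in the wt clones, and 0.858 and 0.746 in E518K. Per exonic base the same ratio was 2.22 and 2.23 in KO, 1.36 and 1.16 for the wt clones, and 1.48 and 1.29 for E518K clones 8 and 15. Which of Relb and Rela was the higher outside KO thus depended on the length, while on either scale the ratio was highest in the KO libraries. Nfkb2 exceeded Nfkb1 in each library, by 8.81 to 15.6 times in deposited TPM, and by 1.59 to 2.82 times per exonic base. The shorter length used for Nfkb2 raises it in the first of these ranges and in the sums above. Nfkb1 spans 106893 bases, of which 12061 are exonic. Gm43430, which has no entry of its own among the counts, overlaps 3.6% of that span.

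**Figure D1:**
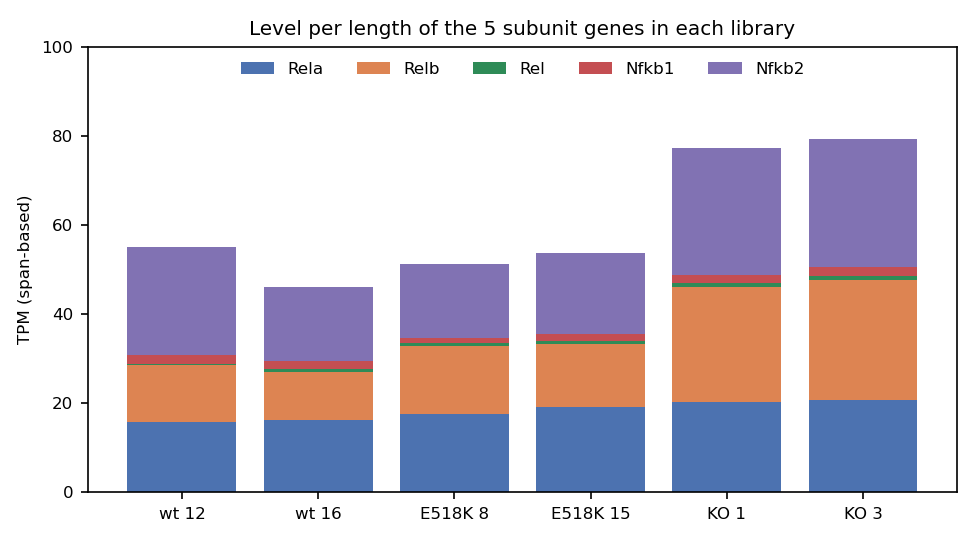
Stacked bars give the deposited TPM (length is the genomic span, 0.912 of it for Nfkb2) of Rela, Relb, Rel, Nfkb1 and Nfkb2 in each of the 6 libraries, named by group and clone or library number. The KO bars reach 77.3 and 79.3 TPM and the other bars 46.0 to 55.0 TPM.

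Relb, the activating subunit of the noncanonical route (chromosome 7, 19606217 to 19629438, minus strand, GRCm38), differed most clearly among the subunits. It was at 88.2 and 91.0 CPM in KO, 45.7 and 36.8 CPM in wt, and 56.4 and 51.2 CPM in E518K. The 3 groups did not overlap, with E518K between wt and KO. Relb rose by 1.12 ± 0.11 on the log2 scale (SE, a 2.17-fold change) in KO against wt (edgeR adjusted p = 0.000239). In E518K it fell by 0.74 ± 0.11 against KO (adjusted p = 0.00208). Both calls held in all 15 alternative analyses run for this gene, with adjusted p of at most 0.00281 and 0.0303. Against wt, E518K stood 0.38 ± 0.11 higher (adjusted p = 0.0452). That call held in 6 of 15 alternatives. The losses came with upper-quartile factors (0.34, adjusted p = 0.0542), both limma fits, only the 4 libraries compared and the KO libraries summed. It was also lost without KO library 1 (0.39), KO library 3 (0.39), E518K clone 8 (0.31) or E518K clone 15 (0.46).

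Rela, the main activating subunit of the canonical route (chromosome 19, 5637483 to 5648130, plus strand), changed little in size. Its level was 31.5 and 32.3 CPM in KO, 26.5 and 25.0 CPM in wt, and 30.1 and 31.5 CPM in E518K. The wt clones were the lowest 2 libraries, and KO library 1 and E518K clone 15 were level. In KO it rose by 0.31 ± 0.08 on the log2 scale, or 1.24-fold, against wt (adjusted p = 0.0144). The call was lost without KO library 1 (0.32, adjusted p = 0.0946) or 3 (0.29, adjusted p = 0.13). E518K against wt gave a log2 difference of 0.26 ± 0.08, which just missed the threshold (adjusted p = 0.058), and passed it with RLE factors (0.27, adjusted p = 0.0488), with DESeq2 (0.27, adjusted p = 0.0247) as well as without wt clone 12 (0.30, adjusted p = 0.0195). E518K against KO gave -0.05 ± 0.08 (adjusted p = 0.646). Rela carries the miR-293-3p match shown above and has no kappaB match in its promoter window.

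Rel, which encodes c-Rel and is best known from lymphocytes (chromosome 11, 23736847 to 23770970, minus strand), was a low transcript with 166 to 366 counts per library. It stood at 4.45 and 4.74 CPM in KO, 2.29 and 2.88 CPM in wt, and 3.66 and 4.03 CPM in E518K. As for Rela and Relb, wt was lowest, KO highest and E518K between them without overlap, for Rela with no gap at 3 digits. Only these 3 of the 10 genes had that order. How many of all tested genes share it was not counted. Libraries did not overlap for 81.7% of tested genes in KO against wt, 62% in E518K against wt and 80.5% in E518K against KO. Rel rose by 0.83 ± 0.19 on the log2 scale in KO against wt (adjusted p = 0.00835), a call lost without KO library 1 (0.87, adjusted p = 0.0508) or 3 (0.78, adjusted p = 0.0731). The log2 difference of E518K from wt was 0.57 ± 0.19 (adjusted p = 0.0692), and it passed with DESeq2 (0.59, adjusted p = 0.0434) as well as without wt clone 16 (0.75, adjusted p = 0.0109). From KO it was -0.26 ± 0.19 (adjusted p = 0.31).

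Nfkb1, the source of p50 (chromosome 3, 135584655 to 135691547, minus strand), had another pattern, with its lowest levels in E518K. It was at 28.7 and 29.3 CPM in KO, 33.6 and 29.0 CPM in wt, and 19.8 and 23.4 CPM in E518K. KO and wt overlapped, and both E518K clones lay below the other 4 libraries. Nfkb1 fell by 0.53 ± 0.12 on the log2 scale in E518K against wt (adjusted p = 0.0186) and by 0.42 ± 0.12 against KO (adjusted p = 0.0227). KO against wt gave -0.11 ± 0.11 (adjusted p = 0.442). The call against wt held in 9 of 15 alternatives. It was lost with only the 4 libraries compared (-0.52, adjusted p = 0.053) and with the KO libraries summed. It was also lost without KO library 1 (-0.53), KO library 3 (-0.53), E518K clone 8 (-0.41) or E518K clone 15 (-0.65). The call against KO was lost without KO library 1 (-0.44, adjusted p = 0.111), KO library 3 (-0.40, adjusted p = 0.134) and E518K clone 8 (-0.30, adjusted p = 0.142).

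Nfkb2, the source of p52 (chromosome 19, 46304320 to 46312385, plus strand), was split by the wt clones. It was at 30.7 CPM in both KO libraries, 27.8 CPM in wt clone 12, 17.6 CPM in wt clone 16, and 19.4 and 20.8 CPM in E518K. Nfkb2 fell by 0.61 ± 0.19 on the log2 scale in E518K against KO (adjusted p = 0.0394). This call was lost without KO library 1 (-0.61, adjusted p = 0.137), KO library 3 (-0.61, adjusted p = 0.136), E518K clone 8 (-0.56, adjusted p = 0.201) and E518K clone 15 (-0.64, adjusted p = 0.149). KO against wt gave 0.44 ± 0.19 (adjusted p = 0.0897), and passed with DESeq2 (0.45, adjusted p = 0.0454) as well as without wt clone 12 (0.81, adjusted p = 8.95e-05). E518K against wt gave -0.18 ± 0.19 (adjusted p = 0.54), and the direction turned with the wt clone left out, to 0.20 without clone 12 (adjusted p = 0.127) and -0.47 without clone 16 (adjusted p = 0.00247). The span of Psd overlaps 3.7% of that of Nfkb2, and the counts of Psd equalled 7.85% to 11.7% of those of Nfkb2. The noncoding gene AC114539.1, on the other strand, overlaps 16.0% of the Nfkb2 span. It has no entry of its own among the counts, so its reads can be counted with Nfkb2.

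**Figure D2:**
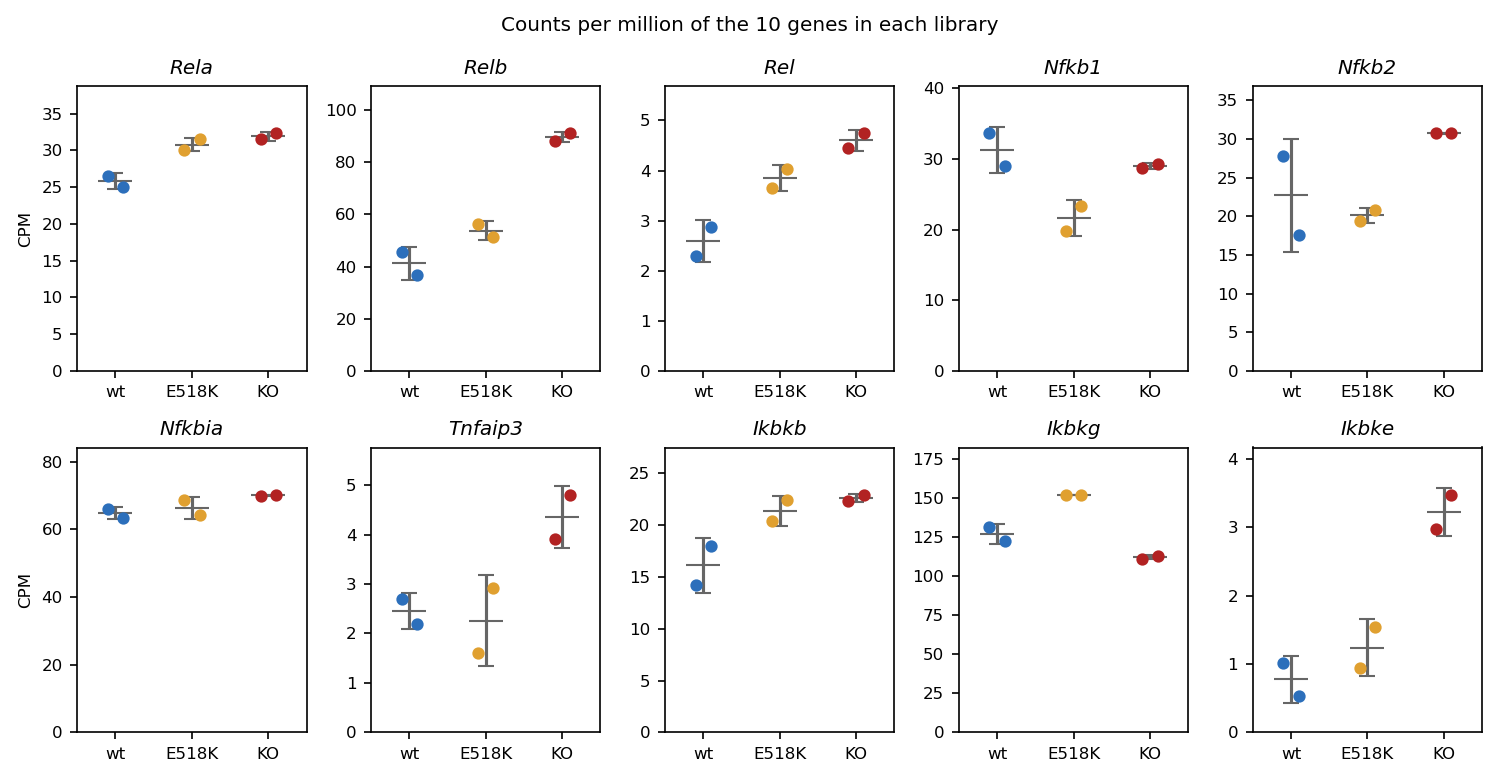
Each panel shows 1 gene, with points for the 2 libraries of wt, E518K and KO and a bar for their mean ± SD, in CPM on a linear axis that starts at 0. Relb separates the 3 groups (36.8 to 45.7 CPM in wt, 51.2 to 56.4 in E518K, 88.2 to 91.0 in KO), and Nfkb1 is lowest in E518K.

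Nfkbia, the inhibitor that holds RelA in the cytoplasm (chromosome 12, 55489410 to 55492647, minus strand), was nearly level. Its values were 70.0 and 70.2 CPM in KO, 66.1 and 63.5 CPM in wt, and 68.7 and 64.2 CPM in E518K. No comparison passed, with log2 differences of 0.11 ± 0.07 for KO against wt (adjusted p = 0.189), 0.04 ± 0.07 for E518K against wt (adjusted p = 0.729) and -0.08 ± 0.07 for E518K against KO (adjusted p = 0.391). Over the alternatives these differences ranged from 0.06 to 0.16, from -0.03 to 0.09 and from -0.19 to -0.01. On log2(TPM + 1) with limma, as on log2(TPM + 0.1), 2 of them passed, KO against wt at 0.16 (adjusted p = 0.0334) and E518K against KO at -0.19 (adjusted p = 0.0287).

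Tnfaip3, the gene of the ubiquitin-editing inhibitor A20 (chromosome 10, 19000910 to 19015657, minus strand), was low, with 116 to 370 counts per library. It stood at 3.91 and 4.80 CPM in KO, 2.70 and 2.19 CPM in wt, and 1.61 and 2.91 CPM in E518K. Both KO libraries lay above the other 4, while the E518K clones lay on either side of wt and differed 1.81-fold. Tnfaip3 rose by 0.83 ± 0.30 on the log2 scale in KO against wt (adjusted p = 0.0487) and fell by 0.94 ± 0.30 in E518K against KO (adjusted p = 0.0413). The first call was lost without KO library 1 (0.97, adjusted p = 0.0965), KO library 3 (0.67, adjusted p = 0.231) and wt clone 16 (0.68, adjusted p = 0.118), with upper-quartile factors (0.78, adjusted p = 0.0554) and on log2(TPM + 0.1) (0.82, adjusted p = 0.0606). The second was lost without KO library 1 (-1.08, adjusted p = 0.1), KO library 3 (-0.79, adjusted p = 0.213) and E518K clone 8 (-0.58, adjusted p = 0.192). E518K against wt gave -0.11 ± 0.31 (adjusted p = 0.809), and turned to 0.05 without wt clone 12 (adjusted p = 0.932) and to 0.25 without E518K clone 8 (adjusted p = 0.579).

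Among the kinases, Ikbke had the largest fold change of the 10 genes in KO. Its product, IKK-epsilon, is a kinase related to TBK1 that acts in interferon induction (chromosome 1, 131254343 to 131279606, minus strand). Its counts were low, at 230 and 268 counts in KO (2.97 and 3.47 CPM), 74 and 39 counts in wt (1.02 and 0.527 CPM), and 68 and 112 counts in E518K (0.944 and 1.54 CPM). The KO libraries were far above the other 4. Ikbke rose by 2.06 ± 0.38 on the log2 scale, or 4.16-fold, in KO against wt (adjusted p = 0.00323). The call held in all 15 alternatives, with log2 values of 0.64 to 2.61 and adjusted p of at most 0.0231. The low end came from limma on log2(TPM + 1), a scale that compresses low values. In E518K against KO it fell by 1.38 ± 0.37 (adjusted p = 0.0212), a call lost without KO library 1 (-1.48, adjusted p = 0.0753), KO library 3 (-1.26, adjusted p = 0.12), E518K clone 8 (-1.06, adjusted p = 0.152) and E518K clone 15 (-1.75, adjusted p = 0.0504). E518K and wt overlapped (0.68 ± 0.38, adjusted p = 0.236), and the difference passed without wt clone 12 (1.23, adjusted p = 0.0342). The ratio of Ikbke to Ikbkb in TPM was 0.250 and 0.285 in KO and at most 0.135 in the other libraries. The annotated antisense genes Gm28913 and Gm28914 overlap 13.5% and 4.1% of the Ikbke span. They have no entry of their own among the counts, so their reads can be counted with Ikbke.

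Ikbkb, the catalytic subunit IKK-beta of the canonical route (chromosome 8, 22659212 to 22706589, minus strand), was lowest in wt. It was at 22.3 and 22.9 CPM in KO, 14.2 and 18.0 CPM in wt, and 20.4 and 22.4 CPM in E518K. KO and E518K overlapped and both lay above wt. Ikbkb rose by 0.49 ± 0.13 on the log2 scale in KO against wt (adjusted p = 0.0145), a call lost without KO library 1 (0.51, adjusted p = 0.0693) or 3 (0.47, adjusted p = 0.0859). E518K against wt gave 0.41 ± 0.13 (adjusted p = 0.0584) and passed with DESeq2 (0.42, adjusted p = 0.0194) as well as without wt clone 16 (0.59, adjusted p = 0.002). E518K against KO gave -0.08 ± 0.13 (adjusted p = 0.644). The annotated antisense gene Gm15346 overlaps 19.8% of the Ikbkb span. It has no entry of its own among the counts, so its reads can be counted with Ikbkb.

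Ikbkg, the gene of the scaffold NEMO (chromosome X, 74393290 to 74453854, plus strand), is a special case. The whole span of G6pdx, the gene of a pentose phosphate enzyme (74409483 to 74429194, minus strand), lies inside it and covers 32.5% of it. The length implied by counts and TPM for Ikbkg is that of its full span, and no source used here says whether counting used strand. The G6pdx count equalled 74.2% and 73.3% of the Ikbkg count in KO, 82.3% and 80.1% of it in wt, and 86.2% and 84.4% of it in E518K. As deposited, Ikbkg stood at 111.2 and 112.9 CPM in KO, 131.4 and 122.6 CPM in wt, and 151.8 and 151.9 CPM in E518K, with no overlap. On these counts it fell by 0.18 ± 0.06 on the log2 scale in KO against wt (adjusted p = 0.0406) and rose in E518K by 0.26 ± 0.06 against wt (adjusted p = 0.026) and by 0.44 ± 0.06 against KO (adjusted p = 0.00168). G6pdx had log2 differences of the same signs and larger size (-0.32 ± 0.07, 0.33 ± 0.07 and 0.65 ± 0.07).

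With the G6pdx count taken off, an alternative chosen after seeing the data, the order of the groups turned. The remainder was 2219 and 2322 counts in KO, 1690 and 1802 counts in wt, and 1510 and 1728 counts in E518K, and the KO values of 28.7 and 30.1 CPM stood against 23.3 and 24.4 CPM in wt and at most 23.7 CPM in E518K. The KO libraries were then the highest, and E518K and wt overlapped. On the remainder Ikbkg was higher by 0.30 ± 0.09 in KO against wt (adjusted p = 0.0288), at -0.09 ± 0.10 in E518K against wt (adjusted p = 0.502) and lower in E518K than in KO (-0.40 ± 0.10, adjusted p = 0.0139). The deposited Ikbkg values, the TPM above included, may thus hold reads of G6pdx and cannot be read as NEMO transcripts alone. As deposited, the call in KO against wt held in 4 of 16 alternatives with its direction. It was lost without any of KO library 1, KO library 3, wt clone 12, E518K clone 8 or E518K clone 15. The other losses were with RLE factors (adjusted p = 0.0555), DESeq2 (0.0546), only the 4 libraries compared, both limma fits and the KO libraries summed. The call in E518K against wt held in 7 of 16. Its losses included those without KO library 1, KO library 3, E518K clone 8 or E518K clone 15. They also included only the 4 libraries compared and the KO libraries summed.

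**Figure D3:**
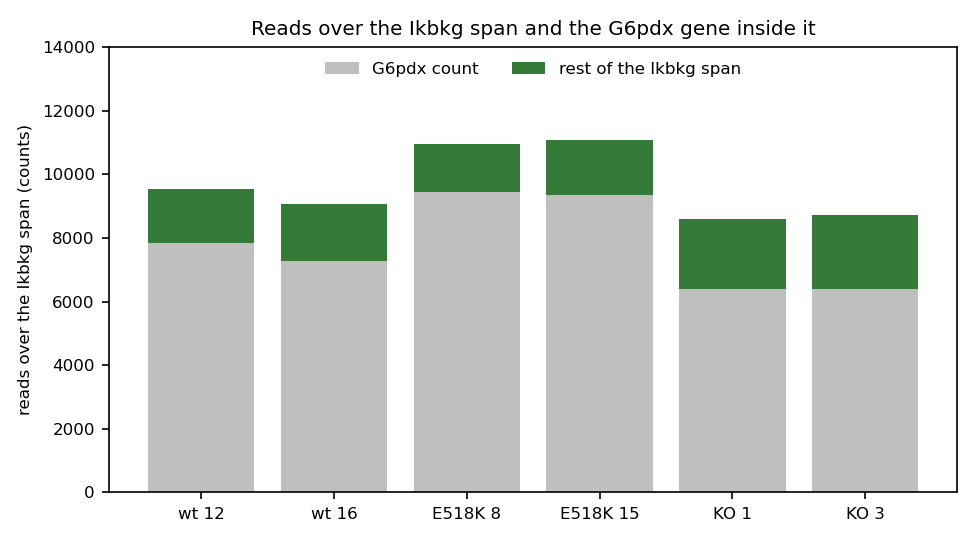
Bars give the deposited counts over the Ikbkg span in each library, split into the count of G6pdx, which lies inside it (grey), and the rest (green). The rest is 2219 and 2322 counts in KO and 1510 to 1802 in the other 4 libraries, while the grey part is largest in E518K.

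Counted over the 10 genes, 6 rose and 1 fell in KO against wt, and 57.2% of all 16498 tested genes passed in that comparison, 27.4% as higher and 29.7% as lower. The median log2 difference of the 10 was 0.46, against -0.02 for all tested genes. In E518K against wt 2 rose and 1 fell, with 23.7% of all genes called (11.3% higher, 12.5% lower), and a median of 0.26 against -0.02. In E518K against KO 1 rose and 5 fell, with 41.8% of all genes called (22% higher, 19.8% lower), and a median of -0.34 against -0.02. The member that fell in KO against wt, and the one that rose in E518K against KO, was Ikbkg as deposited. The comparisons share libraries, so their values are not independent of each other. In these 3 comparisons 9, 6 and 9 of the 10 genes had no overlap between the groups' libraries, against 81.7%, 62% and 80.5% of all tested genes.

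These counts rest on the KO libraries. Without KO library 1, without KO library 3 or with both summed, 2 of the 10 were called in KO against wt (Relb and Ikbke) and 2 in E518K against KO (Relb and Ikbkg as deposited). The count for E518K against wt was then 0 with edgeR, as it was without E518K clone 8 or clone 15 and with only the 4 libraries compared, and it was 5 without wt clone 12 and 6 without wt clone 16. At an unadjusted p of 0.05 those settings with 0 gave 3 (without E518K clone 15) to 6 genes, and DESeq2 on all libraries called 6 after adjustment. Without E518K clone 8, the count in E518K against KO was also 2, and without E518K clone 15 it was 4. Of 16 calls in all, 4 held in each alternative run: Relb and Ikbke in KO against wt, and Relb and Ikbkg in E518K against KO, the last with its direction turned once G6pdx was taken off.

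**Figure D4:**
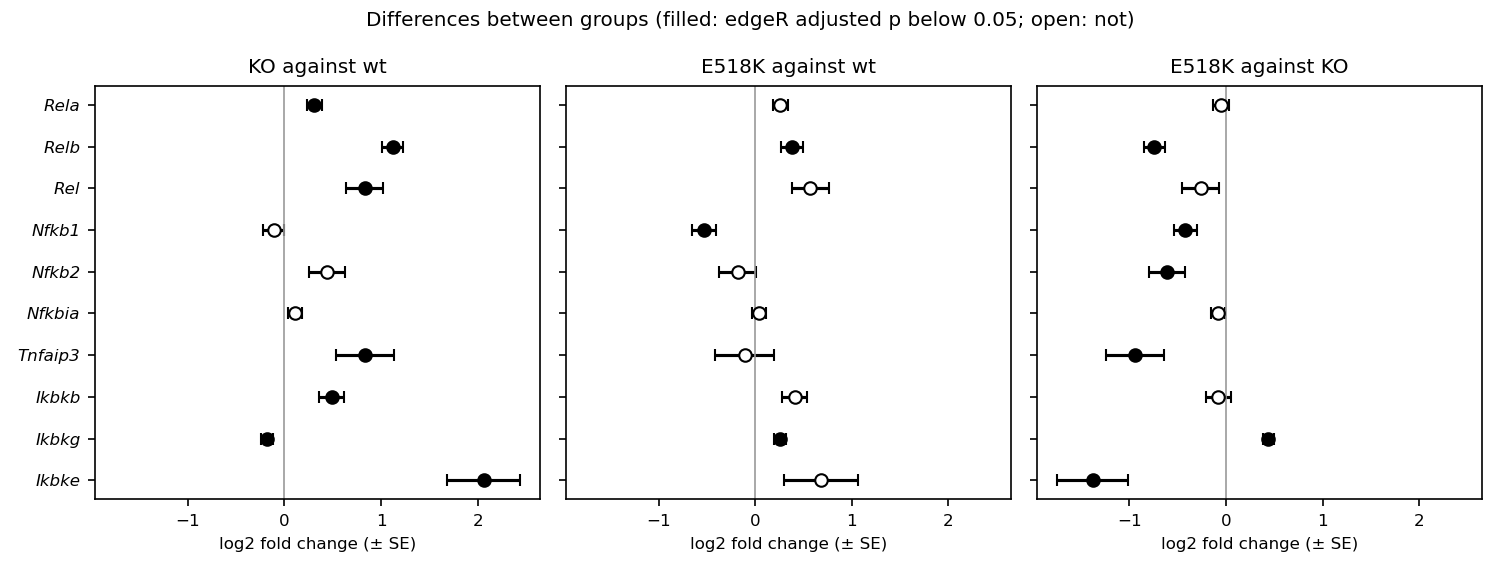
Points give the log2 fold change of each of the 10 genes with its SE in KO against wt, E518K against wt and E518K against KO; filled points passed the edgeR test at an adjusted p of 0.05 and open points did not. Ikbke (2.06) and Relb (1.12) lie farthest from 0 in KO against wt.

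The wider pathway was read through 5 lists of genes, beside the 57.2%, 23.7% and 41.8% of all tested genes called in KO against wt, E518K against wt and E518K against KO. Split into higher and lower, these shares were 27.4% and 29.7%, 11.3% and 12.5%, and 22% and 19.8%. Among 35 kinases and adaptors, 16 rose and 9 fell in KO against wt, with a median of 0.25, where 27.4% of all genes rose and 29.7% fell with a median of -0.02. Irak2, a kinase of the interleukin-1 and Toll-like receptor route, was at 81.4 and 83.5 CPM in KO, 14.1 and 15.8 CPM in wt, and 26.3 and 23.1 CPM in E518K. It rose by 2.46 ± 0.10 in KO and by 0.72 ± 0.10 in E518K against wt (adjusted p = 1.46e-05 and 0.0041). Birc3, a ubiquitin ligase, rose by 1.72 ± 0.15 in KO and stood at 0.19 ± 0.15 in E518K against wt (adjusted p = 0.39). Ripk1, the kinase at the TNF receptor, rose by 1.26 ± 0.12 in KO, whereas the TBK1 adaptor gene Tbkbp1 fell by 2.07 ± 0.11 and Traf1 fell by 2.80 ± 0.52 from 54 and 73 counts in wt to 7 and 12. Traf1 had 20 and 10 counts in E518K, a fall of 2.05 ± 0.49 against wt that was lost in 5 of 15 alternatives. Ripk1 rose by 0.69 ± 0.12 in E518K against wt, without E518K clone 15 by 0.54 (adjusted p = 0.0628), and Tbkbp1 fell by 1.14 ± 0.10 there. The span of Serpinb6a, named here after its values were seen, overlaps 432 bases (1.2%) of that of Ripk1. Serpinb6a had 6130 and 5919 counts in KO and 3204 and 3064 in wt, so reads can be shared. Other list genes overlap neighbours as well, also named after their values were seen. Rnf31 shares 123 bases with Irf9 (4060 and 3764 counts in KO, 1000 and 1054 in wt). The target gene Psmb9 shares 212 bases with Tap1 (541 and 521 in KO, 105 and 227 in wt). Slc22a14 covers 100% of the Myd88 span. The calls counted per list can thus hold reads of other genes.

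Counts over the span of Irak4, the partner kinase of Irak2, also rose in KO, by 1.51 ± 0.08, and in E518K by 0.77 ± 0.07, both against wt. This span overlaps that of Twf1, named here after its values were seen, by 3865 bases. Twf1 had 21610 and 21647 counts in KO and 7682 and 7228 in wt, next to 18776 and 18744 and 6516 and 5982 for Irak4, so reads can be shared. For E518K against wt 5 kinases and adaptors rose and 4 fell (median 0.02), and against KO 7 rose and 11 fell (median -0.09). Without KO library 1 the counts in KO against wt were 9 and 5, and without KO library 3 they were 9 and 6. For E518K against KO they were 1 and 6, and 1 and 7. Against wt the E518K counts without 1 library ran from 3 and 1 (without E518K clone 15) to 7 and 10 (without wt clone 16).

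Of 15 tested inhibitors and deubiquitinases, 5 rose and 4 fell in KO against wt (median 0.06), a share close to that of all genes. Cyld, a deubiquitinase that opposes NF-kB signalling, was at 31.1 and 32.5 CPM in KO against 11.5 and 11.4 in wt, a rise of 1.47 ± 0.10, and Tax1bp1, an adaptor of A20, rose by 1.25 ± 0.09. In E518K against wt Tax1bp1 rose by 0.60 ± 0.09, a call lost in 2 of 15 alternatives. In E518K the level of Cyld was 14.6 and 15.9 CPM and fell short of KO by 1.06 on the log2 scale (-1.06 ± 0.09, adjusted p = 0.000364). Of the list 2 rose and 1 fell in E518K against wt, and against KO 3 rose and 6 fell. Cyld passed against wt in E518K (0.41 ± 0.10, adjusted p = 0.0222) but not without E518K clone 15 (0.36, adjusted p = 0.117), E518K clone 8 (0.48, adjusted p = 0.0526) or either KO library. Without KO library 1 or 3 the list's counts of rising and falling genes were 3 and 2 for KO against wt, 1 and 0 for E518K against wt, and 0 and 4 for E518K against KO. They were 0 and 0 for E518K against wt without E518K clone 15 and 4 and 1 without wt clone 12.

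Of 31 known NF-kB target genes, 22 passed the filter, and of these 11 rose, 2 fell and 9 did not pass in KO against wt, with a median of 0.56. Icam1, an adhesion molecule, was at 56.7 and 57.2 CPM in KO, 22.9 and 29.7 CPM in wt, and 21.5 and 20.1 CPM in E518K, a rise of 1.11 ± 0.12 in KO against wt and a fall of 1.45 in E518K against KO (-1.45 ± 0.13). Tapbp, a chaperone of antigen presentation, rose by 1.16 ± 0.09 and Ifngr2, an interferon-gamma receptor chain, by 1.20 ± 0.11 in KO. Zbtb22 lies inside the Tapbp span, with 3152 and 3146 counts in KO and 3975 and 4051 in wt. Pde4b, a phosphodiesterase, rose by 4.13 ± 0.46 from 20 and 26 counts in wt to 392 and 464 in KO. The early response gene Ier3 went the other way and fell by 1.98 ± 0.18 in KO and by 1.31 ± 0.18 in E518K against wt, the latter call lost without E518K clone 15 (-1.22, adjusted p = 0.0565).

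Compared with wt, 1 target gene rose in E518K and 5 fell (median -0.29), where 11.3% of all tested genes rose and 12.5% fell. Against KO 1 rose and 12 fell (median -0.89), where 22% of all tested genes rose and 19.8% fell. The median of all tested genes was -0.02 in both. Sdc4, a heparan sulfate proteoglycan, fell by 0.70 ± 0.15 in E518K against wt and by 1.22 ± 0.15 against KO. In KO against wt it rose by 0.52 ± 0.14. Leaving out E518K clone 15 ended the first of these calls (-0.54, adjusted p = 0.135), and leaving out KO library 1 (0.43, adjusted p = 0.101) or wt clone 12 (0.35, adjusted p = 0.1) ended the last. Counts of rising and falling targets in KO against wt were 6 and 2 without KO library 1 and 7 and 2 without KO library 3. For E518K against wt they ran from 0 and 0 without E518K clone 15 to 4 and 5 without wt clone 12, and in E518K against KO from 0 and 7 without KO library 3 to 4 and 14 without either wt clone. The 9 targets below the filter, among them the cytokine and chemokine genes Il6, Cxcl1, Cxcl2, Ccl2, Ccl5 and Ccl20, had at most 28 counts in any library, and Cxcl2 and Ccl20 had 0 in all 6.

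Receptors and ligands were sparse. Of 12 tested receptors, 2 rose and 3 fell in KO against wt (median -0.12), 0 rose and 3 fell in E518K against wt with edgeR (median -0.51), and 2 rose and 4 fell in E518K against KO. Tnfrsf1b, the second TNF receptor, was at 26.7 and 24.9 CPM in KO, 29.6 and 25.9 CPM in wt, and 13.2 and 10.6 CPM in E518K. It fell by 1.22 ± 0.13 in E518K against wt and by 1.11 ± 0.13 against KO, and both calls held in all 15 alternatives, whereas KO against wt gave -0.10 ± 0.13 (adjusted p = 0.51). The interleukin-1 receptor gene Il1r1 had 122 and 128 counts in the KO libraries, 28 and 20 in the E518K clones, with wt (52 and 56) between them, and fell by 2.28 ± 0.31 in E518K against KO. Cd40 fell by 2.74 ± 0.45 in KO against wt, from 166 and 81 counts to 22 and 17, and Tnfrsf13c, a receptor of B cells, by 2.38 ± 0.37. No receptor was higher in E518K than in wt at an unadjusted p of 0.05 or with DESeq2, and 6 were lower unadjusted. Without KO library 1 or 3 the counts of rising and falling receptors in KO against wt were 0 and 2, and for E518K against wt the number that fell ran from 1 without E518K clone 8 or 15 to 7 without wt clone 16. The 2 receptors that rose in E518K against KO went to 0 without any 1 of the KO or E518K libraries, and 3 or 4 then fell.

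Ltbr, the lymphotoxin receptor that feeds the noncanonical route, had log2 differences of 0.49 ± 0.27 in KO against wt (adjusted p = 0.151) and of -1.41 ± 0.28 between E518K and KO (adjusted p = 0.00616, but 0.0548 without KO library 1 and 0.0613 without E518K clone 8). The innate receptor gene Tlr2 fell by 1.15 ± 0.17 in E518K against KO. Of 9 tested ligands, 0 rose and 1 fell in KO against wt, none passed in E518K against wt with edgeR or DESeq2 on all 6 libraries (1 at an unadjusted p of 0.05, and 1 as lower in each limma fit), but 3 rose and 1 fell there without wt clone 16, and 1 rose and 0 fell in E518K against KO. The ligand called in KO against wt and in E518K against KO was Ltb, of the lymphotoxin complex, with 79 and 74 counts in wt, 59 and 53 in E518K and 26 and 23 in KO. Its call in KO against wt (-1.71 ± 0.32, adjusted p = 0.00312) held in each alternative, whereas the one in E518K against KO (1.28 ± 0.32, adjusted p = 0.016) was lost without KO library 1 (1.37, adjusted p = 0.0932), KO library 3 (1.20, adjusted p = 0.125), E518K clone 8 (1.20, adjusted p = 0.0849) and E518K clone 15 (1.38, adjusted p = 0.0516). Without wt clone 16, 1 ligand rose and 1 fell in KO against wt. Tnfsf11, which encodes RANKL, had 2 to 26 counts and passed in no comparison on all 6 libraries with edgeR. Tnf itself had 9 to 21 counts per library, and Il1b at most 1.

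**Figure D5:**
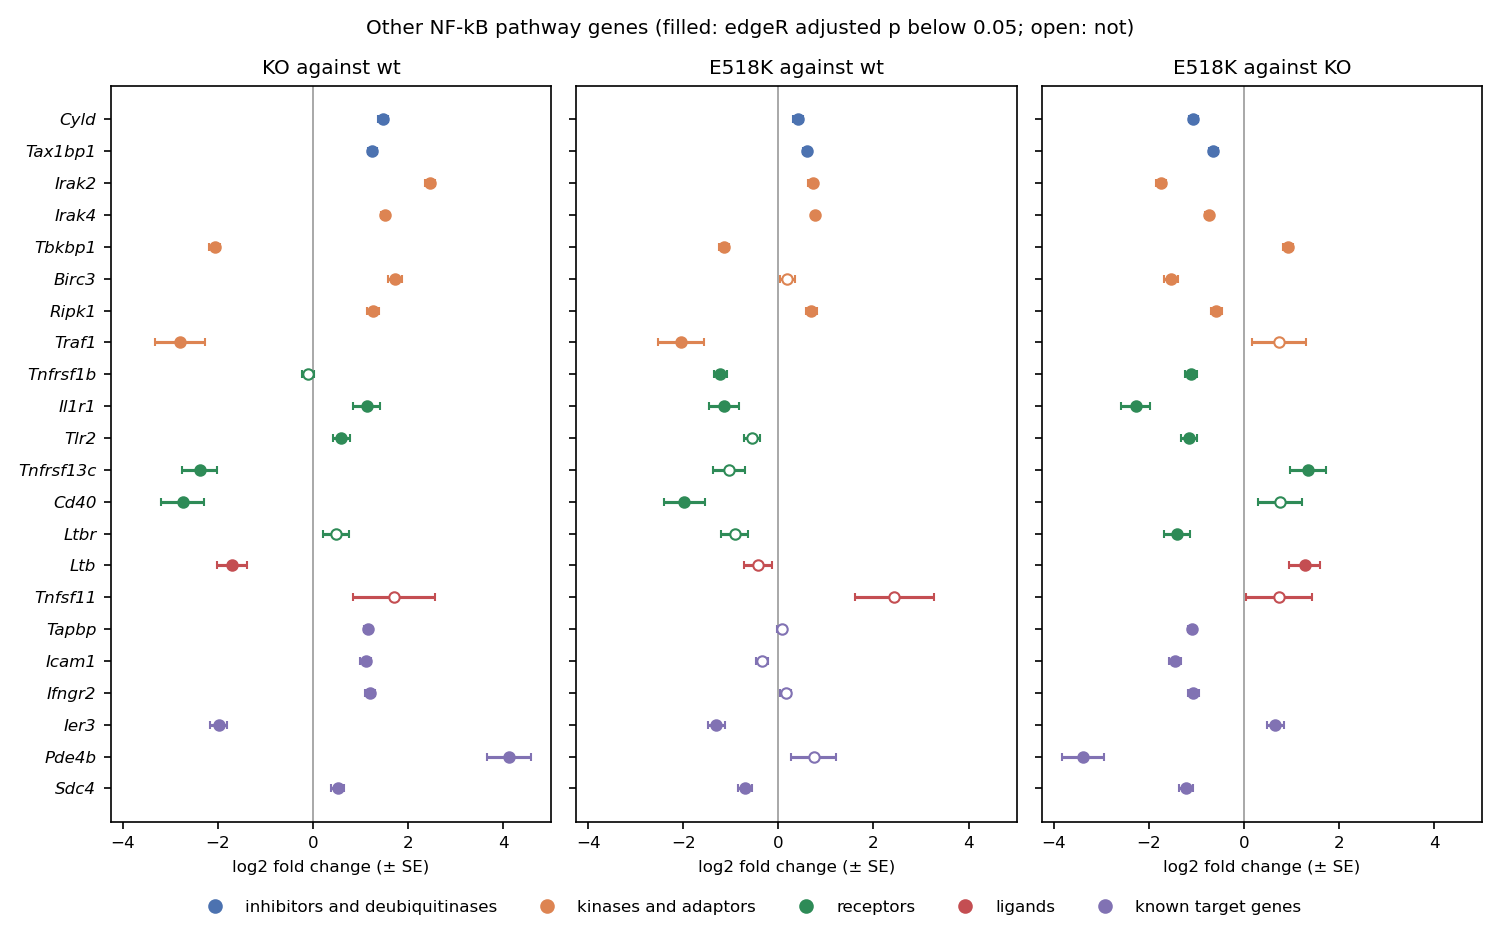
Points give the log2 fold change with its SE of 22 other genes of the pathway, coloured by list, in the 3 comparisons; filled points passed the edgeR test at an adjusted p of 0.05 and open points did not. Irak2, Birc3 and Pde4b lie to the right in KO against wt (2.46, 1.72 and 4.13), and Tnfrsf1b lies to the left in both comparisons of E518K (-1.22 and -1.11).

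The genes nearest in pattern to each subunit were taken as those with the smallest Euclidean distance between log2 CPM profiles, centred over the 6 libraries, among 12064 genes. Relb was closest to Junb, an AP-1 transcription factor gene (distance 0.11), and Qsox1 (0.13), against a median distance of 1.30 over all these genes. Junb was at 13.7 and 14.7 CPM in KO, 7.24 and 6.18 CPM in wt, and 8.66 and 8.27 CPM in E518K. Rel was closest to Kpna1, a nuclear import factor gene (0.09), and to Lifr, the gene of the LIF receptor (0.11), against a median of 1.07. Rela was closest to Ndufs4 (0.02) and Mterf4 (0.04), Nfkb1 to Pcyox1l and Ufsp2 (0.11 each), and Nfkb2 to Hunk (0.14) and Phc2 (0.16). With 6 libraries in 3 groups many genes can come this close, and the distances are given as a description.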

How the data were processed

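Per the labels' protocols, oligo-dT selected RNA went onto a BGISEQ-500. STAR, bedtools and the build GRCm38.p6 come from the submitters' processing notes, and no source used here gives their versions, roles or settings. The deposited count table holds raw counts per gene symbol, and the authors' TPM values divide them by 1 length per gene. For 98.5% of 11716 genes that length lay within 5% of the genomic span. Nfkb2, at 0.912 of its span, was not among them. Of counts above 0, 57.3% to 60.6% were even, so both mates of a pair can be counted.

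Counts were tested with edgeR 4.0.16 in R 4.3.3 by the robust quasi-likelihood F test, with TMM factors, filterByExpr at its default (10 counts) and Benjamini-Hochberg adjustment over 16498 genes, at a threshold of 0.05. All 6 libraries entered 1 fit on group, with 3 residual degrees of freedom. An SE is the log2 fold change over the root of F. Within-group biological variation (edgeR's common coefficient) was 2.6% for KO, 20.6% for wt and 9.19% for E518K, and chi-square tests of the counts, divided by their degrees of freedom, gave 3.63, 54.3 and 22.8. No library repeated another. Alternatives used DESeq2 1.42.0, limma 3.58.1 on log2(TPM + 1) and log2(TPM + 0.1), RLE or upper-quartile factors, no filter, only 4 libraries, KO summed, or 1 library left out. Halved counts, Ikbkg less G6pdx, and levels per exonic base were added after seeing the data. Gene spans and UTRs came from GENCODE M21.

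The members and lists were chosen with earlier results of these data known. Named genes were the 10 members, the markers, genes overlapping a member, and per list up to 6 with the smallest p among those called with a log2 change of 1 or more and libraries apart between groups (where under 2 qualified, the 2 with the smallest p). For each subunit the 2 nearest patterns were added, over genes averaging a log2 CPM of 1 or more and leaving out predicted models.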

Additional observations from a re-analysis of the deposited data

How the results depend on the processing

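Of 453 values of single members under the alternatives, 360 kept the direction and side of the threshold, 67 lost and 15 gained a call, and 11 changed direction, 8 of these where the original difference had not passed. The changes of direction were Nfkb1 in KO against wt without wt clone 12 (0.00), Nfkbia in E518K against wt with upper-quartile factors (-0.01), on log2(TPM + 1) and log2(TPM + 0.1) (-0.03 each) and without E518K clone 8 (-0.01), Nfkb2 and Tnfaip3 in E518K against wt without wt clone 12 (0.20 and 0.05), Tnfaip3 there without E518K clone 8 (0.25), and Ikbkg less G6pdx (0.30, -0.09 and -0.40), where the construction of the alternative removes the G6pdx count. For the others the cause was not tested. Without 1 library at a time these differences ran from -0.22 to 0.00 for Nfkb1 in KO against wt and, in E518K against wt, from -0.47 to 0.20 for Nfkb2, -0.01 to 0.09 for Nfkbia and -0.59 to 0.25 for Tnfaip3.

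With the KO libraries summed, calls fell to 6163 genes and 2 members in KO against wt, 1909 and 0 in E518K against wt, and 3267 and 2 in E518K against KO; this setting has 1 library fewer, and the lone KO library is assumed to vary like the other groups. E518K against wt gave 6 member calls with DESeq2, 1 with limma on either TPM scale, and 1999 genes and 0 members with only the 4 libraries compared. Without 1 library at a time the number of genes called ranged from 6084 to 10958 in KO against wt, 644 to 6987 in E518K against wt and 3285 to 9482 in E518K against KO, and of members from 2 to 7, 0 to 6 and 2 to 6. The share of higher calls in E518K against wt was 47.5%, and 26.8% on log2(TPM + 1); in E518K against KO it was 52.7% and 40.7%. Of 54 calls of the named list genes, G6pdx and Psd, 35 held in all alternatives. Those list genes were named for small p in these same tests, so that share does not describe their lists. No paired analysis was possible because the groups share no replicate numbers. Low counts limit Ikbke, Rel and Tnfaip3.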
